A study of Mus musculus with 6 samples.

Results

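The BCL2 family genes were examined in murine acute myeloid leukemia (AML) cells that carried *Hoxa9* with or without *IRX3*. The group comprised 10 genes, taken by symbol from the known family: the guardians *Bcl2*, *Bcl2l1* and *Mcl1*, the effectors *Bax* and *Bak1*, and the BH3-only genes *Bid*, *Bad*, *Bcl2l11*, *Pmaip1* and *Bbc3*. All 10 were found among the 41128 genes of the expression table, on 8 chromosomes, and all 10 were among the 9522 protein-coding genes tested, those with an expression value over 0.5 in at least 1 mouse. *Bcl2* passed that limit through the *Hoxa9*/MTV mice alone, because all 3 *Hoxa9*/*IRX3* mice lay under it.

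Each of the 6 libraries came from the bone marrow (BM) of 1 mouse sick with AML. BM progenitors positive for KIT came from CD45.1 donors of the congenic B6.SJL strain. They had been infected with retrovirus carrying *Hoxa9* together with either the empty vector MTV or human *IRX3*. The cells had then been transplanted into irradiated C57BL/6 (CD45.2) recipients together with CD45.2 support marrow. Both cohorts thus carried retroviral *Hoxa9* and differed by design in *IRX3*. The paper reports that AML began later in *Hoxa9*/*IRX3* than in *Hoxa9*/MTV recipients, so time since transplantation cannot be told apart from *IRX3* here. The *Hoxa9*/MTV cohort was represented by mice 1.1, 1.2 and 1.4, and the *Hoxa9*/*IRX3* cohort by mice 3.2, 3.3 and 3.5. Viable donor cells positive for KIT and Gr1 were flow sorted before RNA extraction. The labels give the strain of all samples as C57BL/6. By the study's methods, donors and recipients were females of 6 to 12 weeks when marrow was taken or transplanted, so the sick mice were older. The number of independent transductions behind each cohort is not given in the sources used here, and p-values measure the spread between these 6 mice.

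Expression was deposited as RPKM, the reads on a gene divided by its length in kilobases and by the mapped reads of the library, and the reads behind each value were recovered from it. The library sizes behind the RPKM, inferred from the steps between low values, lay between 7979246 and 9803621 reads. The study's methods state a somewhat higher range of reads per sample after filtering. *Irx3*, which checks the labels, had 0 reads in all 3 *Hoxa9*/MTV mice and 454, 14 and 4 reads in mice 3.2, 3.3 and 3.5, counted on the mouse gene although the introduced cDNA was human. *Kit* and the leukocyte gene *Ptprc* were detected in every mouse. Of 9 T and NK cell markers 4 were listed at 0 in all mice and the summed list reached at most 0.0655 RPKM. Of 8 B cell markers 2 (*Pax5* and *Ms4a1*) were listed at 0 in all mice, but *Cd79b*, *Igll1* and *Vpreb1* were not, and their values are given with the other marker lists.

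Proteins of this family decide whether the outer membrane of the mitochondrion is breached during apoptosis. The effectors BAX and BAK1 form the pores that release cytochrome c, the guardians BCL2, BCL-XL (the product of *Bcl2l1*) and MCL1 hold the effectors and the BH3-only proteins in check, and BH3-only proteins are the sensors that neutralize guardians or activate effectors. Myeloid cells and AML blasts depend to differing degrees on MCL1 and BCL2, and BCL2 is the target of the drug venetoclax.

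IRX3 is a homeodomain protein that binds DNA, so the sequence upstream of the members is shown before their values. The 3 windows below are those of the members with the smallest limma p-values. Each holds the 250 bases before a RefSeq transcription start on GRCm38.p6, read on the strand of the gene, with every CG dinucleotide in capitals. The *Bcl2* window lies at chr1:106714291-106714540 on the minus strand, the *Mcl1* window at chr3:95658471-95658720 on the plus strand and the *Bid* window at chr6:120916825-120917074 on the minus strand.
Bcl2: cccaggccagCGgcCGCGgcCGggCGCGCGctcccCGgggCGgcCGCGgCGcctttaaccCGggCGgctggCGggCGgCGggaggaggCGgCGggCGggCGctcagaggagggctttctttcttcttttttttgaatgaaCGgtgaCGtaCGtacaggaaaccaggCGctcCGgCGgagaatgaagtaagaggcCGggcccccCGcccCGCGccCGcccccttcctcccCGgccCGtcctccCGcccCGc
Mcl1: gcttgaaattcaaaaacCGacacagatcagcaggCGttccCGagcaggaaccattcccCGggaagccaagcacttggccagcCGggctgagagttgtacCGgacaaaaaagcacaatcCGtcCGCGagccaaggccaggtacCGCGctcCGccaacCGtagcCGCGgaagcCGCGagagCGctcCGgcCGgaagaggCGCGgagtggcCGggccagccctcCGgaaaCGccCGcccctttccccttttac
Bid: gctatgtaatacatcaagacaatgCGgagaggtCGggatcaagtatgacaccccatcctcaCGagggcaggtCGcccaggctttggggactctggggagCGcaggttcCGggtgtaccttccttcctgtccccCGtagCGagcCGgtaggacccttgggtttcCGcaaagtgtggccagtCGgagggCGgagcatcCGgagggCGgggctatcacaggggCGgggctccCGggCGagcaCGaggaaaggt

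RefSeq gave 15 such windows for 9 of the members. The *Bcl2* window held 36 CG dinucleotides at a GC content of 74.8%, and 97.4% of the 32851 windows of the genome held fewer. The *Mcl1* window held 26 and the *Bid* window 18, and the median was 21 over the windows of the members and 6 over all windows. The motif ACANNTGT of Iroquois proteins, which reads the same on both strands, was in 0 of the 15 windows and in 6.31% of all windows. The motif TGACAG of MEIS proteins, searched on both strands, was in 3 of the 15 windows, 1 each of *Bcl2l1*, *Bbc3* and *Bad*, and in 15.9% of all windows. The end of TGACAG can overlap the start of ACANNTGT. These are matches of letters within the window and not measurements of binding.

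Levels of different genes were compared as RPKM recomputed per kilobase of exon, because the deposited RPKM divide by the whole gene with its introns. *Bcl2* spans 176097 bases on the genome but its exons sum to 9157, so its deposited RPKM is far below its value per kilobase of exon. The exon scale places all reads of a gene on its exons. Whether reads in introns were counted is not given in the sources used here. Such reads would raise the exon-scale value of a gene with long introns, as *Bcl2* is, so the order of genes below carries this limit. On the exon scale *Mcl1* was the most abundant member in all 6 mice, with 145 ± 18.1 (SD, n = 3) in *Hoxa9*/MTV and 97.5 ± 11.1 in *Hoxa9*/*IRX3* mice. The order in *Hoxa9*/MTV mice continued with *Bak1* (69.8 ± 6.76), *Pmaip1* (61.7 ± 27.8), *Bid* (50.6 ± 5.26), *Bax* (22.4 ± 1.83) and *Bcl2* (16.0 ± 3.25). *Bad* (9.80 ± 0.867), *Bbc3* (7.44 ± 0.735), *Bcl2l1* (5.65 ± 1.04) and *Bcl2l11* (5.45 ± 0.883) followed. *Bak1*, *Pmaip1* and *Bid* lay within the spread of *Pmaip1*, and *Bcl2l1* and *Bcl2l11* within their SD of each other.

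In *Hoxa9*/*IRX3* mice *Bak1* (69.6 ± 9.73) again came next after *Mcl1*. *Bid* (31.2 ± 5.70), *Pmaip1* (24.7 ± 17.1) and *Bax* (21.9 ± 7.34) overlapped one another, followed by *Bad*, at 7.89 to 11.6 in the 3 mice. *Bcl2* had passed below *Bad* and lay at 5.07 ± 1.46, within the spread of *Bcl2l1* (5.98 ± 2.82), *Bcl2l11* (3.03 to 5.45) and *Bbc3* (3.18 ± 2.49).

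**Figure D1:**
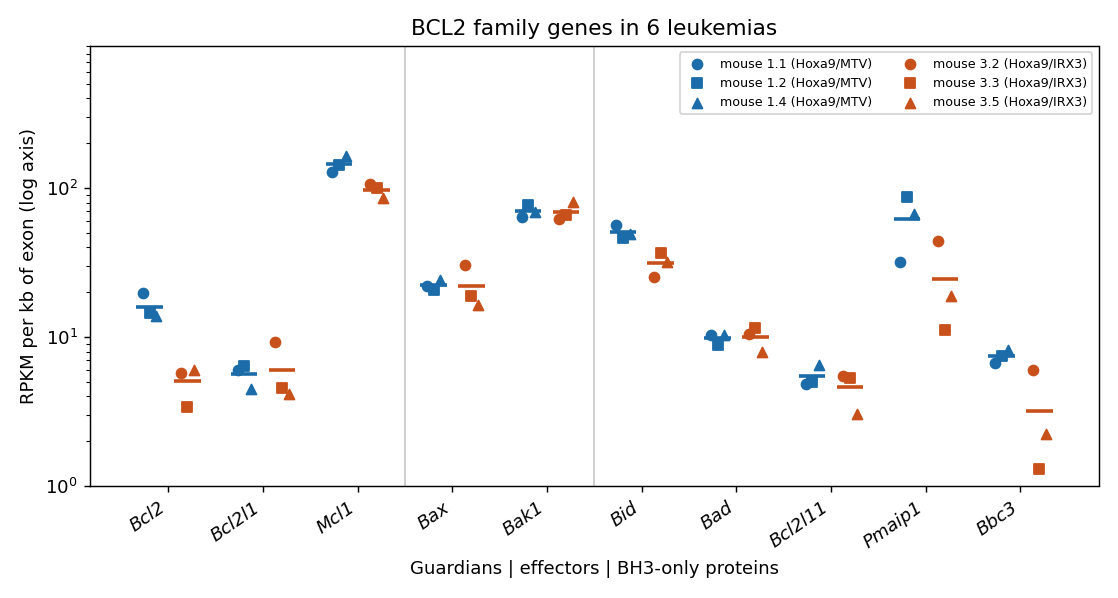
Expression of the 10 BCL2 family genes in each mouse, as RPKM recomputed per kilobase of exon on a log axis, with *Hoxa9*/MTV mice in blue, *Hoxa9*/*IRX3* mice in orange and the cohort mean as a bar. *Bcl2* lay between 13.8 and 19.8 in the *Hoxa9*/MTV mice and between 3.40 and 6.06 in the *Hoxa9*/*IRX3* mice, whereas the ranges of *Bak1*, *Bad* and *Bcl2l1* overlapped.

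Among the members, *Bcl2* alone fell past the limit used, an adjusted p under 0.05 by limma, where the Benjamini-Hochberg adjustment took in every tested gene. Its high values in the *Hoxa9*/MTV mice decided that it was tested, and without the filter on low values its limma adjusted p was 0.0465. The call of *Bcl2* makes 1 of 10 members called lower, where 3.52% of all tested genes were called lower, and 0 of 10 called higher, where 1.84% were. At an unadjusted limma p under 0.05, 5 members were lower (*Bcl2*, *Bid*, *Mcl1*, *Bbc3* and *Pmaip1*), against 16.0% of all tested genes, and 0 were higher, against 8.34%. For 4 members (*Bcl2*, *Mcl1*, *Bid* and *Bbc3*) every *Hoxa9*/*IRX3* mouse lay below every *Hoxa9*/MTV mouse, an order seen in 21.6% of tested genes, and the opposite order, seen in 12.2%, was found for 0 members. With a 2-fold limit added to the adjusted p, 0 members were called lower, against 2.03% of tested genes.

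The median log2 fold change, *Hoxa9*/*IRX3* over *Hoxa9*/MTV on log2(RPKM + 0.5), was -0.38 over the 10 members and -0.06 over all tested genes, and it was negative for 8 of the 10. An exact permutation test of 3 mice against 3 cannot give a two-sided p below 0.1, so limma's p-values are given for single genes. In RNA from a sorted bulk population, fewer cells that express a gene and less RNA in each cell cannot be told apart.

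**Figure D2:**
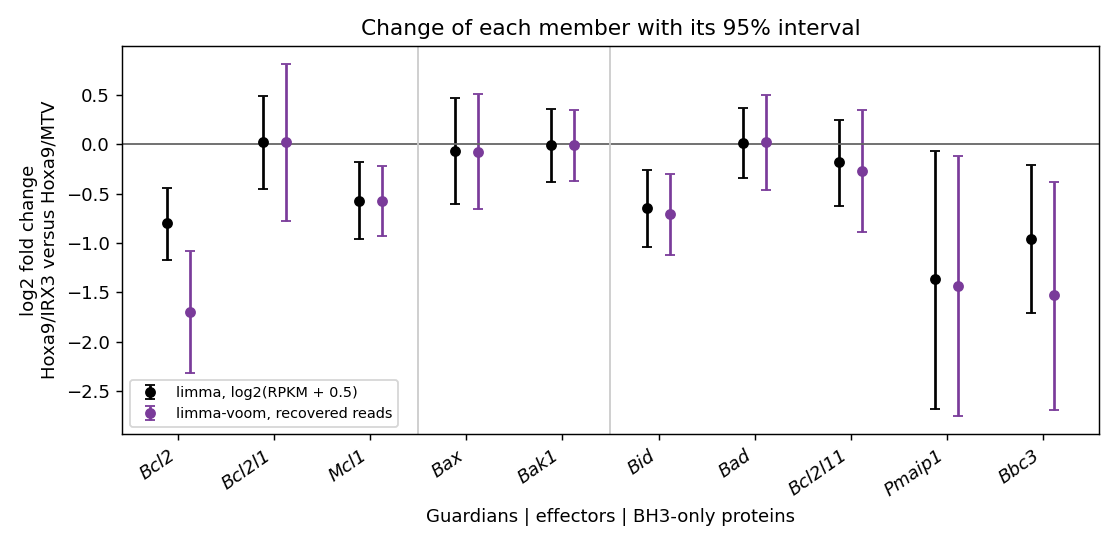
Log2 fold change of each member in *Hoxa9*/*IRX3* versus *Hoxa9*/MTV mice with its 95% confidence interval, from limma on log2(RPKM + 0.5) in black and from limma-voom on recovered reads in purple. *Bcl2* stood at -0.80 and -1.70 in these fits, and the intervals of *Bcl2l1*, *Bax*, *Bak1*, *Bad* and *Bcl2l11* span 0.

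*Bcl2*, the founding member of the family, encodes a guardian anchored in the mitochondrial outer membrane. It lies on chromosome 1 from 106538178 to 106714274 of GRCm38, on the minus strand, in 2 exon blocks separated by a long intron. Its RPKM was 1.03, 0.755 and 0.720 in mice 1.1, 1.2 and 1.4 and 0.299, 0.177 and 0.315 in mice 3.2, 3.3 and 3.5. The lowest *Hoxa9*/MTV mouse thus stood above the highest *Hoxa9*/*IRX3* mouse, with no value between 0.315 and 0.720. The recovered reads were 1601, 1104 and 1226 against 467, 305 and 443. Counting error was small beside this gap, since the exact Poisson 95% interval ran from 1040 to 1170 reads in mouse 1.2 and from 426 to 511 in mouse 3.2, and it covers counting error only.

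The mean RPKM of *Bcl2* was 0.834 ± 0.169 (SD, n = 3) in *Hoxa9*/MTV and 0.264 ± 0.0758 in *Hoxa9*/*IRX3* mice, a 3.16-fold difference of the means. On log2(RPKM + 0.5) the log2 fold change was -0.80 (SE 0.15, 95% confidence interval -1.17 to -0.44), with an adjusted p of 0.0369 by limma. The added 0.5 is close to the values themselves and shrinks this estimate. On the recovered reads, limma-voom gave -1.70 (SE 0.26, interval -2.32 to -1.08, adjusted p = 0.0248), which is 3.25-fold lower, and called 1 of 10 members lower, against 3.26% of tested genes. Recomputed per kilobase of exon, the limma log2 fold change was -1.59 (adjusted p = 0.0187).

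The call for *Bcl2* depended on single mice and on the genes tested with it. When each mouse was left out in turn, the log2 fold change stayed between -0.86 and -0.70, and the limma adjusted p passed 0.05 only without mouse 3.2 (0.0439). It was 0.148, 0.139 and 0.132 without mice 1.1, 1.2 and 1.4, and 0.0533 and 0.0524 without mice 3.3 and 3.5. Calls among all tested genes moved as well, from 510 with all mice to 76, 66 and 61 without mice 1.1, 1.2 and 1.4. They numbered 761, 678 and 482 without mice 3.2, 3.3 and 3.5. When all gene types were tested together the adjusted p was 0.0689. A gene antisense to *Bcl2* inside its intron, *D630008O14Rik*, had 0 reads in every mouse.

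**Figure D3:**
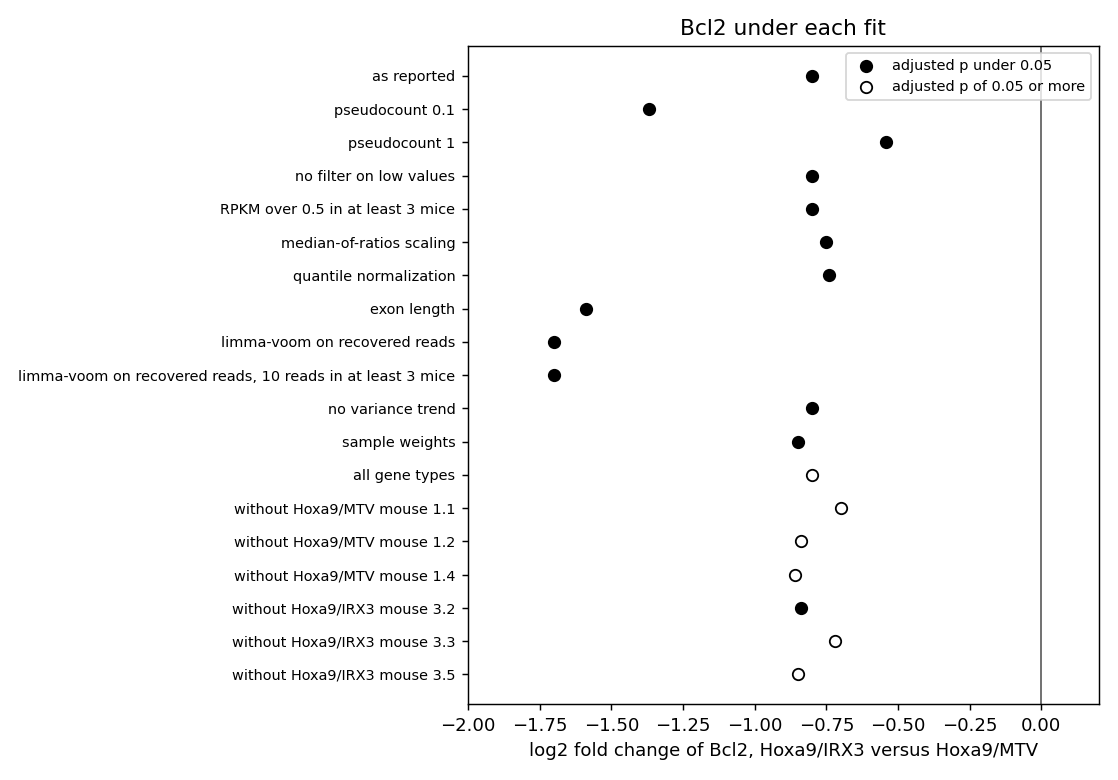
Log2 fold change of *Bcl2* (x axis) under each fit (rows), with filled circles for a limma adjusted p under 0.05 and open circles for 0.05 or more. The estimate lay below 0 in every fit shown, from -1.70 with limma-voom to -0.54 with a pseudocount of 1, while 5 of the 6 fits that leave out a mouse and the fit over all gene types have open circles.

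*Mcl1* encodes a short-lived guardian on which many myeloid cells depend, and it lies on chromosome 3 from 95658788 to 95663176, on the plus strand. Its RPKM was 98.8, 109 and 126 in the *Hoxa9*/MTV mice and 82.1, 76.9 and 65.4 in the *Hoxa9*/*IRX3* mice, from between 2326 and 5446 reads. The cohorts did not overlap. The means of 111 ± 13.9 and 74.8 ± 8.52 RPKM (SD, n = 3) differed 1.49-fold, and the log2 fold change of -0.57 (SE 0.16, 95% confidence interval -0.96 to -0.18) did not pass limma's test after adjustment (adjusted p = 0.0948).

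*Bcl2l1*, which encodes BCL-XL, lies on chromosome 2 from 152780668 to 152831728, on the minus strand. Its RPKM was 0.543, 0.578 and 0.401 in the *Hoxa9*/MTV mice and 0.829, 0.410 and 0.373 in the *Hoxa9*/*IRX3* mice. Mouse 3.2 was the highest of all 6 and mouse 3.5 the lowest. The difference had a log2 fold change of 0.02 with a 95% confidence interval from -0.45 to 0.49 (limma, adjusted p = 0.963), and without mouse 3.2 it was -0.17. As a fold of *Hoxa9*/*IRX3* over *Hoxa9*/MTV, this interval for *Bcl2l1* ran from 0.731 to 1.41. The added 0.5 is close to the values of *Bcl2l1* and narrows the interval. By limma-voom on the recovered reads it ran from 0.582-fold to 1.76-fold, so changes in either direction within that range are not excluded.

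As shares of the exon-scaled sum of the 3 guardians within a mouse, *Mcl1* made up 83.3% to 90.0% in *Hoxa9*/MTV and 87.7% to 92.6% in *Hoxa9*/*IRX3* mice. *Bcl2* made up 12.8%, 8.89% and 7.56% in mice 1.1, 1.2 and 1.4 and 4.72%, 3.14% and 6.35% in mice 3.2, 3.3 and 3.5, and the cohorts did not overlap. *Bcl2l1* made up 3.91%, 3.94% and 2.44% and then 7.57%, 4.21% and 4.35%. *Bcl2* exceeded *Bcl2l1* in every *Hoxa9*/MTV mouse, and in mouse 3.5 alone among the *Hoxa9*/*IRX3* mice. These shares and the ratios that follow are descriptions, with no test, and carry the limit of the exon scale on reads in introns.

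The effectors showed no difference that the test could detect. *Bax*, whose product moves from the cytosol to mitochondria when activated, lies on chromosome 7 from 45461697 to 45466898, on the minus strand. Its RPKM was 6.74, 6.25 and 7.35 in the *Hoxa9*/MTV mice and 9.17, 5.74 and 5.01 in the *Hoxa9*/*IRX3* mice, so that the *Hoxa9*/*IRX3* values lay on both sides of the *Hoxa9*/MTV range. The log2 fold change was -0.07 (95% confidence interval -0.60 to 0.47, limma adjusted p = 0.875), and its sign turned under median-of-ratios scaling (0.01) and quantile normalization (0.02), which moved the median of all tested genes from -0.063 to 0.006 and 0.017. *Bak1*, whose product resides in the mitochondrial membrane, lies on chromosome 17 from 27019810 to 27029009, on the minus strand. Its RPKM was 16.7, 20.2 and 18.0 in the *Hoxa9*/MTV mice and 16.2, 17.3 and 21.1 in the *Hoxa9*/*IRX3* mice. These ranges almost coincided, with a log2 fold change of -0.01 (interval -0.38 to 0.36, limma adjusted p = 0.980) that turned to 0.08 and 0.09 under the same scalings. *Ggnbp1*, on the opposite strand across *Bak1*, had 109 to 213 reads where *Bak1* had 1324 to 1600, and the strand setting of the counting is not given in the sources used here.

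The BH3-only genes differed among themselves. *Bid*, the link from death receptors and caspase 8 to mitochondria, lies on chromosome 6 from 120891930 to 120916853, on the minus strand. Its RPKM was 8.02, 6.55 and 7.04 in the *Hoxa9*/MTV mice and 3.60, 5.22 and 4.52 in the *Hoxa9*/*IRX3* mice. All *Hoxa9*/*IRX3* mice were below all *Hoxa9*/MTV mice, with 795 to 1768 reads behind each value. The means of 7.20 ± 0.749 and 4.45 ± 0.812 RPKM (SD, n = 3) differed 1.62-fold, and the log2 fold change of -0.65 (SE 0.16, 95% confidence interval -1.04 to -0.26) had a limma adjusted p of 0.0712. Without mouse 3.3 it was 0.0498. The end of *Bid* overlaps *Bcl2l13* on the opposite strand, which had 1181 to 1867 reads over its own span.

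*Bbc3* encodes PUMA, a BH3-only protein induced by p53 that binds all guardians, and lies on chromosome 7 from 16308393 to 16318205, on the plus strand. Its RPKM was 1.66, 1.84 and 2.02 in the *Hoxa9*/MTV mice and 1.48, 0.321 and 0.554 in the *Hoxa9*/*IRX3* mice. Mice 3.3 and 3.5 were far below the rest, and mouse 3.2 was just below the lowest *Hoxa9*/MTV mouse. The lowest value rested on 27 reads, with an exact Poisson 95% interval from 17.8 to 39.3, against 126 to 168 reads in the *Hoxa9*/MTV mice. The log2 fold change was -0.96 (SE 0.31, 95% confidence interval -1.71 to -0.21) with a limma adjusted p of 0.126. Without mouse 3.2 it was -1.33 and the adjusted p was 0.0145.

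*Pmaip1* encodes NOXA, a p53 target that binds MCL1 by preference, and had the widest spread of the members. It lies on chromosome 18 from 66458533 to 66465565, on the plus strand. Its RPKM was 12.5, 34.1 and 26.2 in the *Hoxa9*/MTV mice and 17.3, 4.40 and 7.40 in the *Hoxa9*/*IRX3* mice. Mouse 3.2 exceeded mouse 1.1, so the cohorts overlapped. The log2 fold change of -1.37 was the most negative of the members on log2(RPKM + 0.5), but not by limma-voom, which gave -1.44 for *Pmaip1*, -1.53 for *Bbc3* and -1.70 for *Bcl2*. Its 95% confidence interval on log2(RPKM + 0.5) ran from -2.68 to -0.07, and its limma adjusted p was 0.188. Leaving out 1 mouse at a time moved it between -1.88 and -0.95, with adjusted p from 0.0655 to 0.422.

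*Bcl2l11*, which encodes BIM, an activator of BAX and BAK1 that all guardians bind, lies on chromosome 2 from 128126038 to 128162547, on the plus strand. Its RPKM was 1.07, 1.10 and 1.42 in the *Hoxa9*/MTV mice and 1.20, 1.17 and 0.666 in the *Hoxa9*/*IRX3* mice. Mouse 3.5 was the only one below the *Hoxa9*/MTV range, and the log2 fold change was -0.18 (95% confidence interval -0.62 to 0.25, limma adjusted p = 0.569). *Bad*, whose product is held inactive by survival kinases and antagonizes BCL2 and BCL-XL, lies on chromosome 19 from 6941861 to 6951899, on the plus strand. Its RPKM was 2.62, 2.24 and 2.63 in the *Hoxa9*/MTV mice and 2.69, 2.95 and 2.01 in the *Hoxa9*/*IRX3* mice, again on both sides of the *Hoxa9*/MTV range. The log2 fold change was 0.01 (interval -0.34 to 0.37, limma adjusted p = 0.967). The start of *Bad* overlaps *Gpr137* on the opposite strand, which had 106 to 248 reads over its own span where *Bad* had 161 to 290.

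The mice of neither cohort moved as one. In the *Hoxa9*/MTV cohort mouse 1.4 was the highest for 5 members and mouse 1.1 the lowest for 5. Mouse 3.2 was the highest of its cohort for 6 of the 10 members (*Bcl2l1*, *Mcl1*, *Bax*, *Bcl2l11*, *Pmaip1* and *Bbc3*) and the lowest for 2 (*Bak1* and *Bid*). Mouse 3.5 was the lowest for 5. Mouse 3.2 was also the mouse with the most *Irx3* reads, and no relation across 3 mice was tested.

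Because these proteins act on one another, ratios of effector or BH3-only to guardian transcripts were formed within each mouse on the exon scale. *Bax* to *Bcl2* was 1.13, 1.42 and 1.75 in mice 1.1, 1.2 and 1.4 and 5.26, 5.58 and 2.73 in mice 3.2, 3.3 and 3.5. *Bcl2l11* to *Bcl2* was 0.246, 0.346 and 0.467 against 0.948, 1.57 and 0.499. Both were higher in every *Hoxa9*/*IRX3* mouse than in any *Hoxa9*/MTV mouse, although mouse 3.5 was close to mouse 1.4 in the second of them. The numerators *Bax* and *Bcl2l11* overlapped between cohorts while *Bcl2* did not.

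*Bax* to *Mcl1* was 0.173, 0.145 and 0.147 against 0.283, 0.189 and 0.194, again without overlap but with a narrow gap. *Bax* to *Bcl2l1* was 3.21 to 5.44 against 3.28 to 4.16, and *Bcl2l11* to *Mcl1* was 0.0353 to 0.0392 against 0.0355 to 0.0531. *Mcl1* to *Bcl2l1* was 21.3 to 36.9 against 11.6 to 22.0. The cohorts overlapped in these last 3 ratios.

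**Figure D4:**
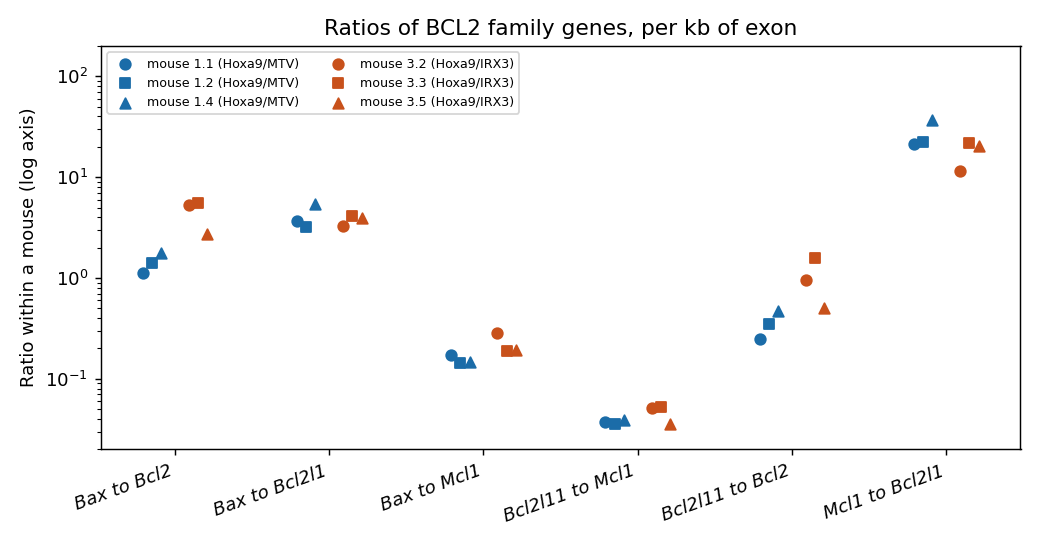
Ratios of BCL2 family transcripts within each mouse on a log axis, from reads per kilobase of exon, with *Hoxa9*/MTV mice in blue and *Hoxa9*/*IRX3* mice in orange. *Bax* to *Bcl2* was 1.13 to 1.75 in the *Hoxa9*/MTV mice and 2.73 to 5.58 in the *Hoxa9*/*IRX3* mice, while the ratios to *Bcl2l1* overlapped.

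The remaining genes of the pathway were taken from lists drawn up by role, and limma called 0 genes of each list at an adjusted p under 0.05. Of all tested genes, 3.52% were called lower and 1.84% higher. Of 18 further BCL2 family genes, 9 were tested, and 1 (*Bmf*, another BH3-only gene) had an unadjusted limma p under 0.05, with a log2 fold change of -0.51. Of all tested genes, 16.0% were lower at that limit. The list's median was -0.18, and limma-voom called 0 of them. Its most abundant genes by RPKM were *Bcl2l2*, which encodes the guardian BCL-W, at 12.7, 14.0 and 13.1 against 10.8, 12.5 and 9.13, and *Bnip3l*, a mitophagy receptor, at 6.38, 9.62 and 6.71 against 7.44, 3.96 and 5.59. The *Bcl2a1* genes, near-identical copies between which reads may be split or lost to a quality filter, reached at most 1.00 RPKM, for *Bcl2a1a* in mouse 3.2. *Hrk* was listed at 0 in all mice.

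Of 27 genes of the apoptosis machinery downstream and at death receptors, 26 were tested. At an unadjusted limma p under 0.05, 3 were lower (*Birc3*, *Casp8* and *Vdac3*), against 16.0% of all tested genes, and 1 was higher (*Fas*), against 8.34%. The list's median log2 fold change was -0.09. *Fas*, the death receptor, was at 0.143, 0.0552 and 0.0780 RPKM in the *Hoxa9*/MTV mice and 0.304, 0.481 and 0.561 in the *Hoxa9*/*IRX3* mice, with limma adjusted p of 0.0723 and limma-voom adjusted p of 0.0481, the 1 call that limma-voom made in the list. *Fas* passed the 0.5 RPKM limit through mouse 3.5 alone, so that its high values in one cohort decided that it was tested. The most abundant were *Htra2*, a mitochondrial protease, at 25.7, 26.6 and 22.6 against 45.7, 35.9 and 25.4, and *Tnfrsf1a*, a receptor for tumor necrosis factor, at 16.6, 12.2 and 12.7 against 23.7, 5.54 and 16.5. The log2 fold change of *Apaf1*, the scaffold of the apoptosome, was -0.07.

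The p53 list of 18 genes holds *Trp53* itself beside p53 targets, which include the members *Bbc3*, *Pmaip1* and *Bax*, and 15 of its genes were tested. At an unadjusted limma p under 0.05, 2 were lower (*Bbc3* and *Pmaip1*), against 16.0% of all tested genes. Against 8.34% of all, 1 was higher, *Ccng1*, which encodes cyclin G1. *Ccng1* was at 29.4, 27.3 and 25.5 RPKM in the *Hoxa9*/MTV mice and 54.5, 39.0 and 44.8 in the *Hoxa9*/*IRX3* mice, without overlap, with a limma adjusted p of 0.0588 and a limma-voom adjusted p of 0.0475, the 1 call of limma-voom in the list. The p53 gene *Trp53*, *Cdkn1a* and *Mdm2* had log2 fold changes of 0.01, -0.02 and -0.07, and the list's median was -0.07.

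Of 12 genes that act upstream of BCL2 proteins, 10 were tested, with a median log2 fold change of 0.02. At an unadjusted limma p under 0.05, 2 were lower (*Foxo3*, a transcription factor that activates *Bcl2l11* and *Bbc3*, and *Trim17*, an E3 ligase), against 16.0% of all tested genes. Against 8.34% of all, 1 was higher (*Tmbim6*), and limma-voom called 0 of the list. *Foxo3* was at 1.90, 1.68 and 1.73 RPKM against 1.26, 1.31 and 1.37, with a limma adjusted p of 0.112. *Tmbim6*, which encodes BAX inhibitor-1 of the endoplasmic reticulum, was the most abundant at 43.1, 45.3 and 45.3 against 57.4, 55.0 and 89.7, followed by *Bag1*, a co-chaperone that binds BCL2, at 4.84, 7.66 and 7.31 against 5.45, 5.85 and 5.68. *Fas*, *Birc3*, *Casp8*, *Vdac3*, *Apaf1*, *Bmf*, *Foxo3*, *Trim17* and the p53 genes were named after their values were seen.

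Some monocytic and granulocytic markers also differed between the cohorts. The summed RPKM of 9 monocyte and macrophage markers was 138 to 165 in *Hoxa9*/MTV and 26.3 to 71.6 in *Hoxa9*/*IRX3* mice. Of the 7 tested, limma called 4 as lower (*Cd68*, *Ctss*, *Ms4a6c* and *Ccr2*), against 3.52% of all tested genes. *Ctss* passed the 0.5 RPKM limit through the *Hoxa9*/MTV mice alone. *Cd14* had a log2 fold change of -0.02, with 50.8 RPKM in mouse 3.2, and *Csf1r* reached 6.43 in mouse 3.3, above the *Hoxa9*/MTV range of 4.77 to 5.94. The summed RPKM of 13 neutrophil markers was 3130 to 4610 and 6900 to 7550, with 1 of 13 (*Elane*) called higher, against 1.84% of all tested genes. *Elane* alone rose from a mean of 794 to 2960 RPKM. Without overlap, 5 of the 13 were higher (*Elane*, *Mpo*, *Prtn3*, *Ctsg* and *Mmp9*), an order seen in 12.2% of all tested genes. The other markers of the list overlapped between cohorts and went both ways. *S100a8* (0.82) and *Lcn2* (0.76) had positive log2 fold changes, and *Ltf* (-0.99) and *Mmp8* (-0.75) had negative ones. Those of *Ngp* (-0.13), *Camp* (0.07), *Cxcr2* (0.13) and *S100a9* (0.33) were smaller. None of these passed limma's test after adjustment. Of the sort markers, *Kit* had a log2 fold change of -0.31 (limma adjusted p = 0.323) and *Ly6g*, part of the Gr1 antigen, was called higher by limma (adjusted p = 0.0205) but not by limma-voom (adjusted p = 0.0596). It had 2 to 5 reads in the *Hoxa9*/MTV mice and 26 to 49 in the *Hoxa9*/*IRX3* mice, through which alone it passed the 0.5 RPKM limit. *Ly6c2*, of the same list, was far more abundant, at 413 to 479 RPKM in *Hoxa9*/MTV and 414 to 844 in *Hoxa9*/*IRX3* mice. Its log2 fold change was 0.56 (limma adjusted p = 0.278). Of 8 B cell markers 3 were tested, with sums of 6.45 to 7.33 and 2.01 to 43.4 RPKM, and they went in opposite directions. *Cd79b* was called lower, with 6.11, 7.07 and 7.01 RPKM against 0.330, 0.149 and 2.31. *Igll1*, of the surrogate light chain of B cell precursors, was at 0.102, 0.0726 and 0.0312 against 1.19, 9.11 and 38.4, a log2 fold change of 3.92 with a limma adjusted p of 0.0776. It passed the 0.5 RPKM limit through the *Hoxa9*/*IRX3* mice alone. *Vpreb1*, its partner chain, reached 0.169 in the *Hoxa9*/MTV mice and was at 0.231, 0.376 and 2.72 in the *Hoxa9*/*IRX3* mice (limma adjusted p = 0.272). It was tested through mouse 3.5 alone. The erythroid list summed to at most 0.303 with 5 of 8 at 0. Of the stroma list 1 gene was tested and 0 were called. The part of the monocytic and granulocytic markers in the change of *Bcl2* and in the lower values of *Mcl1*, *Bid* and *Bbc3* was not tested.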

How the data were processed

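RNA of sorted KIT+Gr1+ AML cells from 6 mice, 3 per cohort, was analyzed. The authors prepared strand-specific polyA libraries, sequenced paired ends of 75 bases, aligned them to GRCm38 (the submitters' processing notes name Bowtie2 2.2.1 and SAMtools 0.1.19), removed alignments with a quality under 20, assigned reads to Ensembl v76 genes and deposited RPKM. Cohorts were taken from the sample labels.

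The deposited RPKM divide by the whole gene span. GENCODE M21 gave gene types, spans and exon lengths for 40254 genes. Reads were recovered from the steps between low values. On the M21 span 65.0% of the 9522 tested genes gave whole reads (to within 0.01), and 99.7% did once a gene length between 0.5 and 2 times that span was fitted, which was needed for 5 of the 10 members.

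Protein-coding genes over 0.5 RPKM in at least 1 mouse were tested by limma 3.58.1 (R 4.3.3) after a log2 transform of RPKM plus 0.5 (eBayes with a variance trend, Benjamini-Hochberg over all tested genes), and limma-voom was run on the recovered reads as an alternative. The fit was tested on simulated data. Poisson intervals used scipy 1.17.1. The members and gene lists were chosen with earlier results of these data known. Named genes are all 10 members and, of each list, genes past the adjusted p or otherwise the 2 most abundant. Alternatives were other pseudocounts, filters, scalings, lengths and gene types, the study's criterion, and leaving out each mouse. A voom fit with a read minimum of 10 was chosen after seeing the data. No protein sequences were used here.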

Additional observations from a re-analysis of the deposited data

How the results depend on the processing

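The count of BCL2 family members called was 1 in 11 of the 14 alternatives that kept all mice, 2 (*Bcl2* and *Bbc3*) by the study's criterion of an unadjusted p and a 2-fold ratio of means, and 0 with a 2-fold limit or with all gene types, where more genes share the adjustment. Leaving out 1 mouse gave 0 to 2, with 0 without mouse 1.1, 1.2, 1.4 or 3.5, *Bid* without mouse 3.3, and *Bcl2* and *Bbc3* without mouse 3.2. *Bcl2* kept its direction in all alternatives, from -1.70 to -0.54 with all mice. Calls among all tested genes numbered 510, against 298 with the 2-fold limit, 326 with all gene types and 61 to 761 with 1 mouse left out.

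*Bax* and *Bak1* reversed to 0.01 and 0.08 under median-of-ratios scaling and to 0.02 and 0.09 under quantile normalization. These scalings moved the median of all tested genes by a like amount, from -0.063 to 0.006 and 0.017. With 1 mouse left out *Bax* ranged from -0.31 to 0.10, *Bak1* from -0.12 to 0.07, *Bcl2l1* from -0.17 to 0.13 and *Bad* from -0.08 to 0.15. Apoptosis machinery calls rose from 0 to 1 with exon length, with both limma-voom fits and by the study's criterion, and were 0 to 1 with 1 mouse left out. Calls of p53 targets rose from 0 to 1 under both scalings, exon length, both limma-voom fits, no variance trend and the study's criterion, and were 0 to 2 with 1 mouse left out. The wider BCL2 family stayed at 0 in every alternative.

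No paired analysis was possible because the numbers stand for animals, with no pairing across cohorts. Fits without 1 mouse compare 3 mice with 2. Reads per library limit *Bbc3* most, at 27 to 168 reads per mouse.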
